A study of Homo sapiens with 12 samples.

Results

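The genes described here are 10 immediate early genes of the AP-1 group: FOS, FOSB, FOSL1, JUN, JUNB, JUND, ATF3, EGR1, IER2 and IER3. They were chosen with earlier results of these data known and taken by symbol from the 60649 genes in the count files. All 10 are reported whatever their values, and all 10 are among the 16683 genes that passed the expression filter and were tested. They were followed in spheroids, which are rounded clumps of cells, of SBC3, an established human line of small cell lung cancer. The study is about teriflunomide or leflunomide given with chemotherapy, and its RNA sequencing holds 12 libraries in 4 groups of 3: control, teriflunomide, lurbinectedin, and both drugs together (the combination). Teriflunomide inhibits DHODH, an enzyme of pyrimidine synthesis, and lurbinectedin binds DNA and blocks transcription by RNA polymerase II. All 4 groups are the same cell line, with no other alteration named. Doses, exposure times and whether the control received a vehicle are not given in the sources used here.

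Immediate early genes are switched on within minutes by growth factors, stress or DNA damage, by transcription factors already present in the cell, and their short-lived RNAs then decay. FOS family proteins (FOS, FOSB, FOSL1) pair with JUN family proteins (JUN, JUNB, JUND) to form AP-1, a dimer that binds DNA at target genes, and ATF3 can pair with JUN proteins. EGR1 is a zinc finger transcription factor of the same early wave, and IER2 and IER3 are small proteins named for their immediate early induction. Growth signals pass through MAP kinases to factors bound at these promoters, and phosphatases of the DUSP group and RNA-binding proteins such as ZFP36 end the response.

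In the coordinates of the files (hg38), the FOS family lies on 3 chromosomes, with FOS at chr14:75278826-75282230 (plus strand), FOSB at chr19:45467995-45475179 (plus strand) and FOSL1 at chr11:65892049-65900573 (minus strand). Of the JUN family, JUN at chr1:58776845-58784048 (minus strand) is on another chromosome than JUNB at chr19:12791486-12793315 (plus strand) and JUND at chr19:18279694-18281622 (minus strand). ATF3, the longest member, spans chr1:212565334-212620777 on the plus strand. The others are EGR1 at chr5:138465479-138469303 (plus strand), IER2 at chr19:13150411-13154911 (plus strand) and IER3 at chr6:30743199-30744548 (minus strand). All are protein-coding genes counted over their exons, and the exons of JUNB, JUND and IER3 merge into 1 block each in the files.

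The promoters of the members are shown first because these genes share a mode of control and because the transcription factors that act on them are themselves among the genes measured. A window of 250 bases before the start was available from RefSeq (GRCh38.p14) for 8 of the 10 members: ATF3, EGR1, FOS, FOSB, IER2, JUN, JUNB and JUND. On both strands, 4 patterns were searched: the AP-1 site TGANTCA, the CRE or CRE-like site TGACNTCA, the CRE core TGACGT, which overlaps some TGACNTCA matches, and the CArG box, which serum response factor binds. The 6 windows below were picked to show each pattern of matches, after the expression values were seen. They are written 5′ to 3′ on the strand of the gene, with matches in capitals, and bases that fall inside the gene as the count files place it are left off:
JUN, chr1:58784049-58784297, minus strand: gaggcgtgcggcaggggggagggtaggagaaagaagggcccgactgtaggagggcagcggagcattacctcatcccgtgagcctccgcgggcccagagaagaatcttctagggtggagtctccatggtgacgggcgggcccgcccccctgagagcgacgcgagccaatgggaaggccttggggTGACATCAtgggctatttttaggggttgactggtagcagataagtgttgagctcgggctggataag
ATF3, chr1:212565157-212565333, plus strand: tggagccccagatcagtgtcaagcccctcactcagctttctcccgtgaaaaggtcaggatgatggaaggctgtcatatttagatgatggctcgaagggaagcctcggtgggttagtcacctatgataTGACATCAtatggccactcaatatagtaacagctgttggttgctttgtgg
JUND, chr19:18281623-18281872, minus strand: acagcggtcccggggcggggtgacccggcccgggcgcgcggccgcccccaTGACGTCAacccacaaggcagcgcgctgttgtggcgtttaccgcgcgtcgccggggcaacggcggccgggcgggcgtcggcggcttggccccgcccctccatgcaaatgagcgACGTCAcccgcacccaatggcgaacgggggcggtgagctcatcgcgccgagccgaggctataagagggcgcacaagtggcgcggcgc
EGR1, chr5:138465229-138465478, plus strand: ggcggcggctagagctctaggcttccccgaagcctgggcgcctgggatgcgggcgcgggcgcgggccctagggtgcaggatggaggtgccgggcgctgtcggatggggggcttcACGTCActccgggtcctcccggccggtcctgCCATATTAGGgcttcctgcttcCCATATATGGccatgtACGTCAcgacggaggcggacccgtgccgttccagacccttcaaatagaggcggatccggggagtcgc
FOS, chr14:75278578-75278825, plus strand: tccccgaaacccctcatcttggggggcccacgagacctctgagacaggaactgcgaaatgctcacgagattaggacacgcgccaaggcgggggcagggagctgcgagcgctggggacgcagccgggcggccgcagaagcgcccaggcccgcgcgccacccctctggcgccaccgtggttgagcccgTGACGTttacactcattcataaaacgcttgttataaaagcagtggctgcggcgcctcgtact
JUNB, chr19:12791236-12791485, plus strand: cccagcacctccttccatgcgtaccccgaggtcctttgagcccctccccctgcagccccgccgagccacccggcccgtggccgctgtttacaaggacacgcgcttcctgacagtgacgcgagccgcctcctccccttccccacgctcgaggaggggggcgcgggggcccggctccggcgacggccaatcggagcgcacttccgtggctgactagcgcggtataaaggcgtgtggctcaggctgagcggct
JUN and ATF3 held the same CRE-like letters, TGACATCA, ending 60 and 116 bases before the RefSeq start. The count files place the start of ATF3 further upstream, so that 73 bases of its RefSeq window lie inside the gene and the match ends 43 bases before that start. JUND held the full CRE palindrome TGACGTCA ending 193 bases before the start and a further core ending 82 bases before it. The pattern TGACNTCA occurred in these 3 members and in 6.87% of 35116 promoter windows of the same length. The CRE core occurred in EGR1, FOS, FOSB and JUND and in 7.10% of windows. Within these windows EGR1 was the only member of the 8 with a CArG box, and it had 2 of them, against 1.16% of windows with any. Bases further upstream than 250 were not searched. The AP-1 letters were in none of the 8 windows and in 6.57% of all windows. JUNB and IER2 held none of the 4 patterns. ATF3 has 2 annotated starts, of which the first is shown, and counts per gene do not tell which start was used. A match is a match of letters in this window and not evidence of binding.

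Levels are in CPM, a gene's counts relative to the TMM-normalised size of its library. Fold changes and adjusted p-values are from edgeR's quasi-likelihood test over all 16683 genes, with Benjamini-Hochberg adjustment, and a gene was called at an adjusted p under 0.05. Total counts ranged from 23206414 to 33222162 per library. Teriflunomide replicate 3 and combination replicate 2 stood apart, with 22.6% and 24.9% of counts on the mitochondrial genome against 6.26% to 17.0% in the other 10 libraries, so results that rest on them are given with and without them. The labels do not say that replicates are separate cultures, so p-values measure the spread between these libraries. The line was checked on small cell and epithelial markers: in control, YAP1 averaged 246 CPM, KRT8 243, SYP 16.8 and NEUROD1 4.03, while INSM1 had no count in any library. Leukocyte markers summed to at most 0.447 CPM and endothelial markers to at most 0.579 CPM. Of the fibroblast markers, COL1A1 and COL1A2 were at 266 and 270 CPM in control while LUM was at 0 and DCN had 1 count in all, and the summed level of this list was 520 to 550 CPM in control and 187 to 221 CPM with lurbinectedin. The part of these markers in the results below was not tested, and in bulk RNA fewer cells of a type and less RNA per cell cannot be told apart.

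In untreated spheroids the 10 genes spanned a wide range of levels. Per kilobase of exon, FOSL1 (16.1 ± 0.932 CPM per kb, SD, n = 3) and JUND (16.0 ± 0.700) were highest and did not differ beyond their spread. IER2 (8.30 ± 0.0788), JUNB (8.07 ± 0.145) and EGR1 (7.45 ± 0.389) came next, ahead of FOSB (1.68 ± 0.0728) and JUN (1.09 ± 0.0862). IER3, ATF3 and FOS were lowest, at 0.742 ± 0.0767, 0.698 ± 0.0566 and 0.612 ± 0.0663 CPM per kb, with overlapping libraries for neighbours in this order. FOS and JUN were thus the least abundant of their families before treatment.

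**Figure D1:**
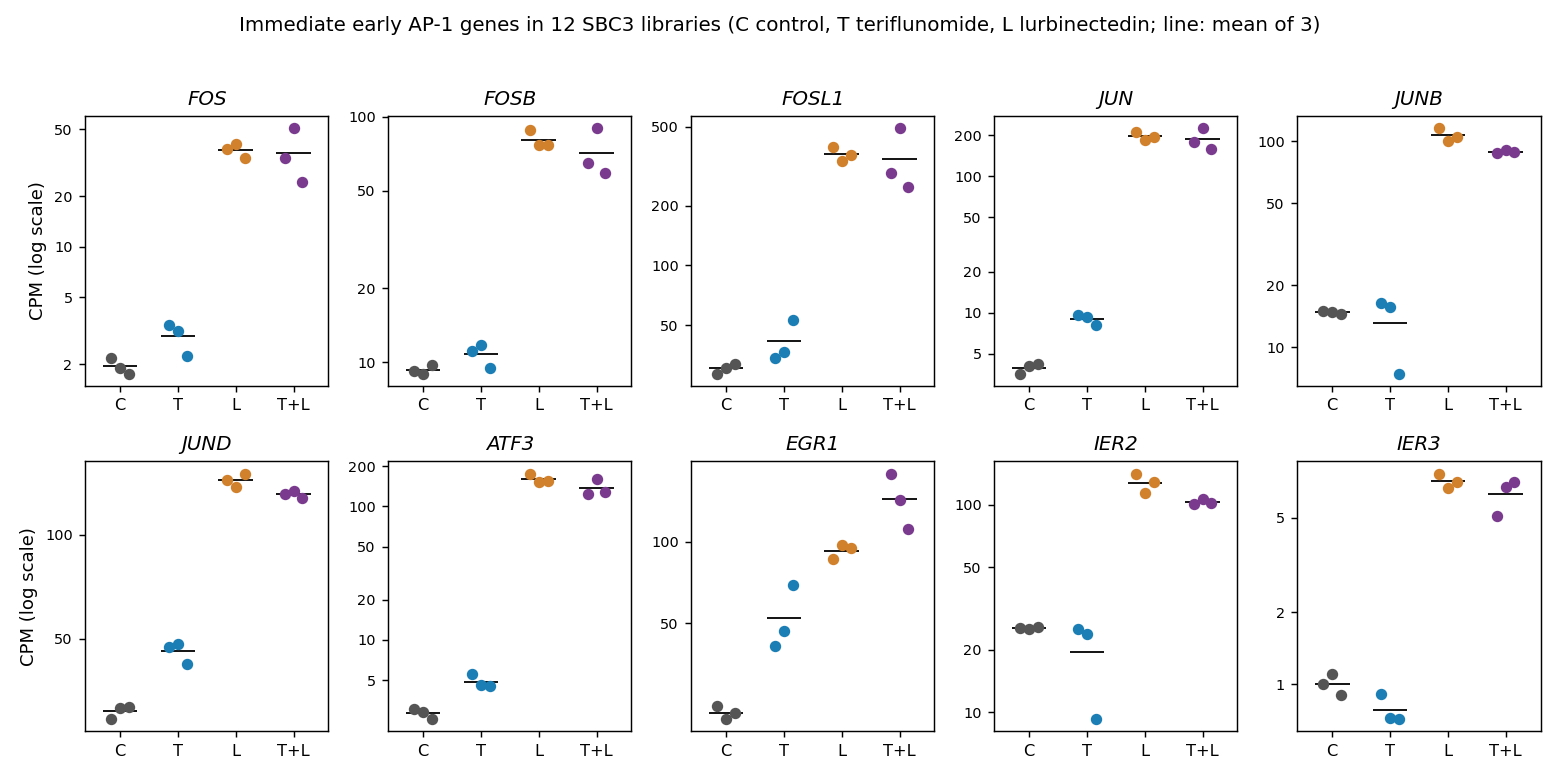
CPM of each of the 10 genes (log axis, a separate scale for each gene) in the 12 libraries, grouped as control (C), teriflunomide (T), lurbinectedin (L) and combination (T+L), with each group's mean of 3 as a line. All 6 libraries with lurbinectedin lie above all 6 without it for every gene shown, and how many of all genes separate in this way was not counted. Teriflunomide replicate 3, the rightmost T point, is low for JUNB (7.46 CPM) and IER2 (9.30 CPM).

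Lurbinectedin raised all 10 genes, from 3.97-fold for EGR1 to 56.9-fold for ATF3. The called share of all genes is large in this comparison, with 36.0% of the tested genes higher and 35.7% lower, so a call alone sets no gene apart. The median log2 fold change of the 10 members was 2.98, beside 0.05 over all genes tested. Only 0.318% of genes had a larger log2 fold change than ATF3, and 6.91% had a larger one than EGR1, the member that changed least.

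ATF3, a stress-induced factor that can repress or activate targets depending on its partner, was at 3.02, 2.88 and 2.57 CPM in the control libraries. With lurbinectedin it was at 176, 152 and 154 CPM. The groups were far apart, with a log2 fold change of 5.83 ± 0.155 (SE) and an adjusted p of 8.38e-12 in edgeR.

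JUN, the founding JUN family subunit and a substrate of the stress kinase JNK, was at 3.59, 4.05 and 4.18 CPM in control. It was at 213, 185 and 195 CPM with lurbinectedin. That was a 50.1-fold rise, with a log2 fold change of 5.65 ± 0.157 (edgeR, adjusted p = 1.06e-11). JUNB, which can oppose JUN at some targets, was at 15.0, 14.8 and 14.5 CPM in control and at 116, 100 and 105 CPM with lurbinectedin, a log2 fold change of 2.86 ± 0.217. JUND, the subunit usually present in resting cells, rose least of the family, from 29.4, 31.6 and 31.8 CPM to 144, 138 and 151 CPM (log2 fold change 2.22 ± 0.0957). Of all genes, 0.342% had a larger log2 fold change than JUN, 3.15% a larger one than JUNB and 5.41% a larger one than JUND.

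FOS was at 2.18, 1.91 and 1.76 CPM in control and at 38.0, 41.0 and 33.6 CPM with lurbinectedin, a 19.3-fold rise (log2 4.27 ± 0.260; edgeR, adjusted p = 5.14e-09). FOSL1, also called FRA1 and linked to invasion in epithelial tumours, was at 28.6, 30.6 and 32.1 CPM in control and at 397, 336 and 359 CPM with lurbinectedin (log2 3.58 ± 0.238). FOSB was at 9.18, 8.99 and 9.77 CPM in control and at 88.0, 77.1 and 76.8 CPM with lurbinectedin (log2 3.11 ± 0.162). A larger log2 fold change was seen in 1.14% of all genes for FOS, 1.77% for FOSL1 and 2.49% for FOSB.

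EGR1, IER2 and IER3 rose by 3.97-fold, 5.01-fold and 7.09-fold. EGR1 was at 24.6, 22.2 and 23.2 CPM in control and at 86.2, 96.9 and 95.0 CPM with lurbinectedin (log2 1.99 ± 0.194; edgeR, adjusted p = 5.38e-07). IER2 was at 25.5, 25.3 and 25.8 CPM and then at 142, 114 and 129 CPM (log2 2.33 ± 0.260). IER3, a regulator of survival signalling, was the least abundant per kilobase after treatment, at 1.01, 1.10 and 0.896 CPM in control and at 7.66, 6.65 and 7.05 CPM with lurbinectedin (log2 2.83 ± 0.186). Each of the 10 calls held under every alternative processing and without any 1 library. JUNB, IER2 and IER3 have exons that overlap genes on the opposite strand, HOOK2 for JUNB, IER3-AS1 and HCG20 for IER3, and 2 genes known by identifier alone for IER2, and FOSB overlaps the span of ERCC1. Since the use of strand in counting is not given in the sources used here, the values of these 4 genes are uncertain to the extent that such reads were mixed.

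With library size as the only scaling, the median over all genes moved from 0.05 to -0.18 (log2) and the share of calls that were higher from 50.2% to 39.2%. The members' median was 2.75 on that scale, and all 10 were still called higher.

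Many of the members are short genes, and the shortest genes were called higher more often than all genes. Of the tested genes, the 3337 shortest had spans up to 5207 bases, and 6 of the 10 members were among them. Log2 fold changes of these 6 ran from 1.99 for EGR1 to 4.27 for FOS. The longer members ATF3, JUN, FOSL1 and FOSB were at 5.83, 5.65, 3.58 and 3.11, so among the members the shorter genes did not rise more. The part of span in the members' rise was not tested. In the 3337 short genes the median log2 fold change with lurbinectedin was 0.70 and 51.1% of genes were called higher. A log2 fold change over 2, which 9 of the members exceeded, was seen in 15.9% of the short genes and in 6.86% of all genes.

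The composition of the FOS and JUN families changed with the level. Summed over FOS, FOSB, FOSL1, JUN, JUNB and JUND, the level was 43.6 ± 1.53 CPM per kb in control and 407 ± 26.4 with lurbinectedin. JUN made up 2.49 ± 0.112% of that sum in control and 13.4 ± 0.0814% with lurbinectedin. The share of JUND went the other way, from 36.8 ± 0.436% to 18.4 ± 1.08%. FOSL1 held 36.9 ± 0.879% in control and 47.4 ± 0.895% with lurbinectedin, and FOS went from 1.41 ± 0.204% to 2.91 ± 0.402%. These shares had no overlap between the 3 control and the 3 lurbinectedin libraries. In order of level per kilobase under lurbinectedin, FOSL1 (193 ± 16.2) led JUND (74.7 ± 3.40). JUNB (58.4 ± 4.28) and JUN (54.5 ± 3.84) followed with overlapping libraries, as did IER2 (41.6 ± 4.57) and ATF3 (39.8 ± 3.41). EGR1 (29.5 ± 1.83), FOSB (14.5 ± 1.15), FOS (11.8 ± 1.17) and IER3 (5.27 ± 0.376) were lower.

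**Figure D2:**
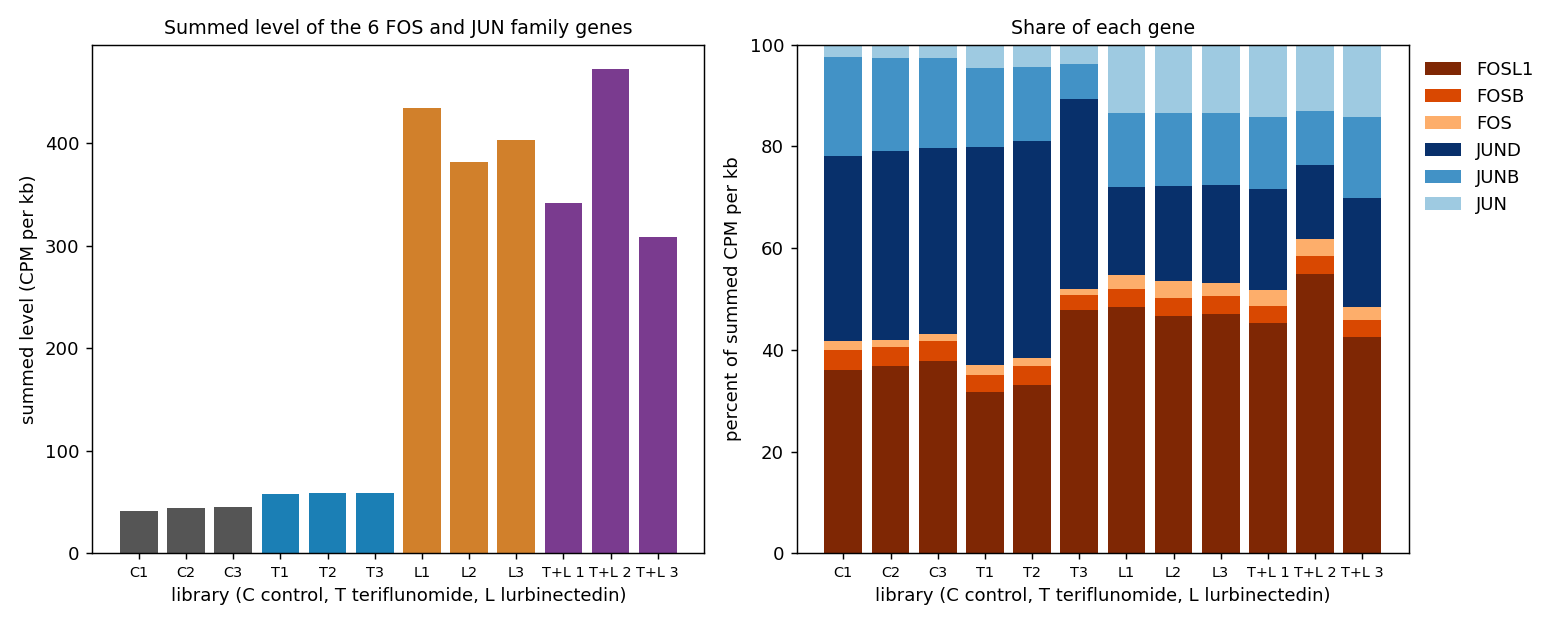
Left, the summed level of the 6 FOS and JUN family genes in each library (CPM per kb, bars from 0), and right, the percent of that sum from each gene. The sum averages 43.6 in control and 407 with lurbinectedin, and the JUN share 2.49% and 13.4%.

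Teriflunomide alone raised 4 of the 10 genes: JUN, EGR1, ATF3 and JUND. The changes were small beside those with lurbinectedin, between 1.49-fold and 2.28-fold. Of all genes tested, 3.88% were called higher and 2.13% lower. The median log2 fold change of the 10 members was 0.51, against 0.03 over all genes.

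JUN was at 9.56, 9.28 and 8.11 CPM with teriflunomide, above all 3 control libraries (log2 fold change 1.19 ± 0.144; edgeR, adjusted p = 0.000766). EGR1 was at 41.1, 46.7 and 69.2 CPM, with the highest value in replicate 3 (log2 1.16 ± 0.190; edgeR, adjusted p = 0.00414). Without replicate 3 of teriflunomide EGR1 was still called, at log2 0.91 ± 0.142. JUND was at 47.5, 48.2 and 42.2 CPM, a narrow spread (log2 0.57 ± 0.0927; edgeR, adjusted p = 0.00393), but it was not called with library size as the only scaling (log2 0.50, adjusted p = 0.0970). ATF3 was at 5.51, 4.58 and 4.50 CPM (log2 0.79 ± 0.146; edgeR, adjusted p = 0.00832). The ATF3 call was lost when control replicate 3 was left out (adjusted p = 0.0618 in edgeR) and when only the 2 groups compared were fitted (0.0579). None of these 4 genes had a teriflunomide library within the range of control, but neither did FOS, FOSL1 and IER2, which were not called. How many of all genes separate in this way was not counted.

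The other 6 members were not called. FOS was at 3.43, 3.17 and 2.25 CPM, each above control, with a log2 fold change of 0.61 ± 0.267 (edgeR, adjusted p = 0.178). Replicate 3 was the lowest of these, and without it FOS was still not called (log2 0.76 ± 0.307; edgeR, adjusted p = 0.147). It was called only without both replicate 3 and combination replicate 2 (log2 0.76, adjusted p = 0.00988 in edgeR). That setting was chosen after seeing the data, and combination replicate 2 enters this comparison only through the shared fit. FOSL1 was at 34.4, 36.8 and 53.1 CPM (log2 0.45 ± 0.219; edgeR, adjusted p = 0.223), and it was called only with no expression filter (adjusted p = 0.0386). Without replicate 3 its value was 0.23 ± 0.236. FOSB was at 11.1, 11.8 and 9.51 CPM, overlapping control (log2 0.21 ± 0.156).

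JUNB and IER2 lay 357095 bases apart on chromosome 19 and had the same pattern in this group. JUNB was at 16.4, 15.7 and 7.46 CPM and IER2 at 25.2, 24.0 and 9.30 CPM, so that replicate 3 was far below the other two libraries in both. Their log2 fold changes were -0.16 ± 0.210 and -0.39 ± 0.253, neither called. Without that library the values were 0.12 ± 0.0921 and -0.06 ± 0.0961. IER3 was at 0.909, 0.719 and 0.715 CPM (log2 -0.35 ± 0.218; edgeR, adjusted p = 0.334). The same replicate had the highest EGR1 and FOSL1 of its group and 22.6% mitochondrial counts, and the part of that share in these values was not tested.

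**Figure D3:**
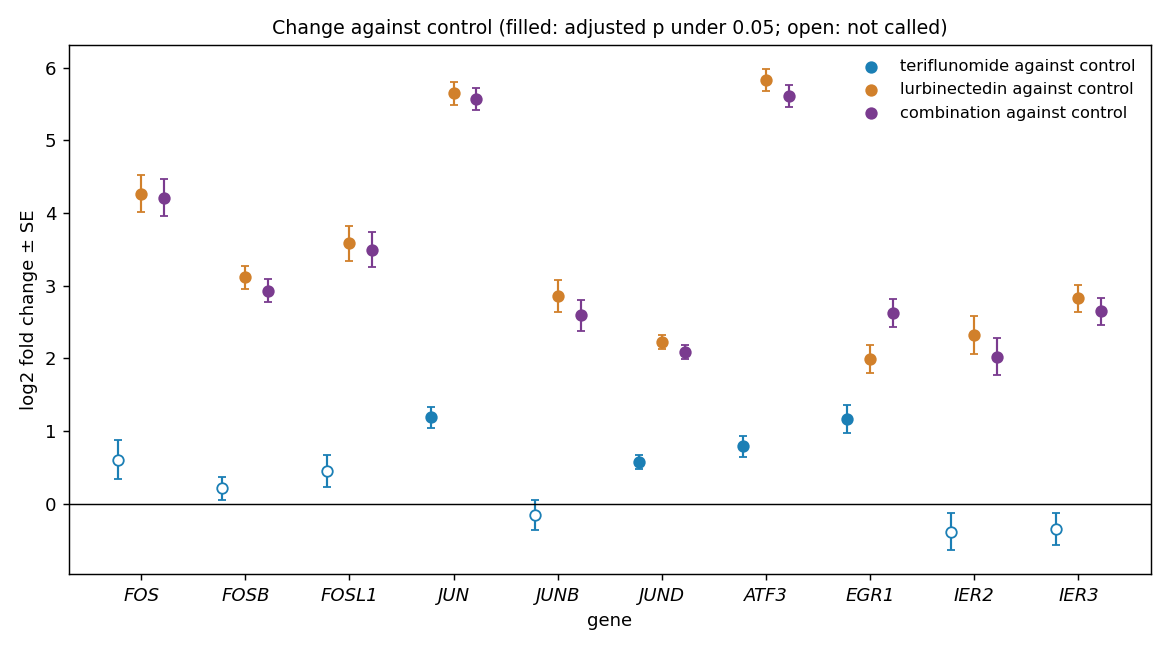
Log2 fold change against control of each of the 10 genes (y axis, with SE bars) for teriflunomide, lurbinectedin and the combination, each group with 3 libraries; filled points were called at an adjusted p under 0.05 and open points were not. Lurbinectedin and the combination lie between 1.99 and 5.83 for all genes, while teriflunomide runs from -0.39 for IER2 to 1.19 for JUN.

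With both drugs all 10 genes were again above control, where 34.1% of all genes were higher and 34.4% lower. Log2 fold changes ran from 2.02 ± 0.257 for IER2 to 5.61 ± 0.153 for ATF3, with a median of 2.79. JUN was at 178, 225 and 160 CPM (log2 5.57 ± 0.157; edgeR, adjusted p = 1.09e-11) and ATF3 at 125, 160 and 129 CPM. FOS was at 33.8, 50.5 and 24.4 CPM and FOSL1 at 293, 491 and 247 CPM, a wider spread than with lurbinectedin alone. Replicate 2 was the highest combination library for 8 of the 10 members, all but EGR1 and IER3. All 10 calls held without it. Against teriflunomide alone the combination was also higher for all 10, where 35.2% of genes were called higher, by log2 1.46 ± 0.189 for EGR1 to 4.82 ± 0.145 for ATF3.

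Adding teriflunomide to lurbinectedin changed none of the 10 genes at the threshold, nor any of the 16683 tested (0.0% called). At an unadjusted p under 0.05 edgeR had 2599 genes and 1 member, EGR1, and DESeq2 called 584 genes and the same member. EGR1 was at 178, 142 and 112 CPM with both drugs and at 86.2, 96.9 and 95.0 CPM with lurbinectedin alone (log2 0.64 ± 0.185; edgeR, adjusted p = 0.170). It was called by DESeq2 (adjusted p = 0.0331), by edgeR with no expression filter (0.0011) and by edgeR without teriflunomide replicate 3 (0.00607). The other 9 members had log2 differences between -0.30 ± 0.246 for IER2 and -0.06 ± 0.214 for FOS. JUNB was at 87.5, 90.4 and 89.1 CPM with both drugs. JUND was at 132, 134 and 128 CPM and IER2 at 101, 107 and 103 CPM. None of these 3 differences was called (edgeR, adjusted p = 0.545, 0.489 and 0.576).

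The calls in this comparison depended on which libraries with a high mitochondrial share were left out. Without teriflunomide replicate 3, EGR1 was called higher and JUNB and IER2 lower, where 6.31% of all genes were higher and 5.8% lower. That library is in neither group compared and enters only through the shared fit. EGR1 was at 0.64 ± 0.124 without it and 0.64 ± 0.185 with it. Without combination replicate 2 alone, which is in the comparison, 0 members were called, where 212 of 17043 genes were higher and 47 lower. Without both libraries, 1 member was called higher and 7 lower, where the shares of all genes were 11.4% and 10.1%. Among them FOSL1 differed by -0.43 ± 0.0841 (edgeR, adjusted p = 0.00148) and JUN by -0.22 ± 0.0782 (0.0449). That setting was chosen after seeing the data, and it left 2 libraries with teriflunomide alone and 2 with the combination.

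The effect of teriflunomide was then compared between the absence and the presence of lurbinectedin. The difference of the 2 effects, the interaction, was negative and called for 3 of the 10 members, JUN, JUND and ATF3, where 0.222% of all genes were called lower. JUN, 2.28-fold higher with teriflunomide alone, was 0.948-fold the lurbinectedin level when both were given (interaction log2 -1.27 ± 0.190; edgeR, adjusted p = 0.0167). For ATF3 the effects were 1.73-fold alone and 0.859-fold with lurbinectedin (interaction -1.01 ± 0.189; edgeR, adjusted p = 0.0475). For JUND they were 1.49-fold and 0.910-fold (interaction -0.71 ± 0.130; edgeR, adjusted p = 0.0434).

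The sign of the interaction did not change for these 3 genes under any alternative, but the calls did. None of the 3 was called with library size as the only scaling, where the median interaction of all genes moved from 0.02 to 0.16 and the higher share of calls from 14.0% of 43 to 33.3% of 6. With 1 library left out at a time, JUN was called in 5 of 12 fits, ATF3 in 2 and JUND in 1. JUN lost its call without any 1 of the control or lurbinectedin libraries or combination replicate 1, ATF3 kept it without teriflunomide replicate 3 or combination replicate 2, and JUND kept it without teriflunomide replicate 3.

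EGR1 rose with teriflunomide alone and was higher by 0.64 with lurbinectedin present, and its interaction was not called (log2 -0.53 ± 0.264; edgeR, adjusted p = 0.526). FOS (-0.66 ± 0.342), FOSL1 (-0.53 ± 0.306) and FOSB (-0.40 ± 0.215) had negative values that were not called. JUNB, IER2 and IER3 were at -0.11, 0.08 and 0.17. Without the 2 libraries with the highest mitochondrial share, 7 of the 10 members were called lower, all 6 FOS and JUN family genes and ATF3, with FOS at -1.13 ± 0.228 (edgeR, adjusted p = 0.00384). In that setting 4.97% of all genes were called lower.

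**Figure D4:**
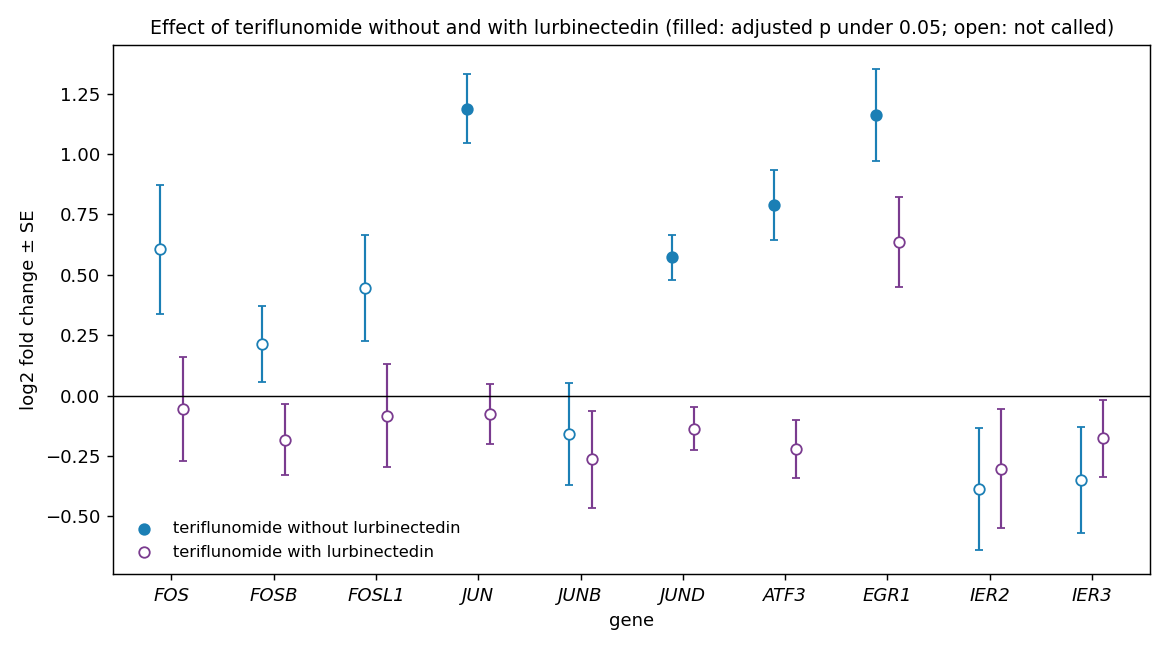
Log2 fold change of each of the 10 genes (with SE bars) on teriflunomide treatment without lurbinectedin (teriflunomide against control) and with it (combination against lurbinectedin); filled points were called at an adjusted p under 0.05 and open points were not. JUN is at 1.19 and -0.08, ATF3 at 0.79 and -0.22, and EGR1 at 1.16 and 0.64.

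Genes that work around the members were counted from 5 lists, each set beside the shares of all genes given above. Of 29 tested genes in the list of other immediate early genes, 27 rose and none fell with lurbinectedin, with a median log2 fold change of 2.30. BTG2, an antiproliferative early gene, went from 31.1 ± 1.69 CPM in control to 687 ± 28.8 (log2 4.46 ± 0.120; edgeR, adjusted p = 8.38e-12). CCN1, a secreted matrix protein, had a log2 fold change of 3.26 and IER5 one of 3.06. With teriflunomide 3 rose and 2 fell in this list (median 0.17). BTG2 rose by log2 1.29 ± 0.107 and KLF2 by 0.71 ± 0.154, while IER5L fell by 0.86. With the combination 28 rose and none fell (median 2.13).

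Of 10 tested AP-1 partners, which are other leucine zipper proteins that pair with FOS or JUN, 5 rose and 4 fell with lurbinectedin (median 0.93), and the same counts were seen with the combination (median 0.84). MAFF went from 4.23 to 35.3 CPM (log2 3.06 ± 0.132) and FOSL2 from 105 to 289 CPM (1.46 ± 0.104). JDP2, a repressor of AP-1 sites, fell from 6.06 to 1.11 CPM (log2 -2.44 ± 0.226) and ATF7 from 36.5 to 8.90 CPM (-2.03 ± 0.167). With teriflunomide none rose and 1 fell (median 0.11), BATF3, at 1.21 CPM in control and 0.366 CPM with the drug (log2 -1.69 ± 0.340; edgeR, adjusted p = 0.0133).

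Among 18 brakes on the response, 10 rose and 4 fell with lurbinectedin and likewise with the combination, with a median of 1.05 in both. The MAP kinase phosphatases DUSP8 (log2 4.15 ± 0.154), DUSP5 (2.65 ± 0.186) and DUSP1 (2.44 ± 0.148) rose, and ZFP36, which speeds the decay of early RNAs, rose with the combination by 1.91 ± 0.138. Teriflunomide raised 5 and lowered none (median 0.20). DUSP6, a phosphatase of ERK, went from 5.73 ± 0.531 to 18.5 ± 1.68 CPM (log2 1.69 ± 0.147; edgeR, adjusted p = 5.55e-05), a larger value than that of any member with this drug. DUSP4 rose by 0.96 ± 0.137 and SPRY2 by 0.82 ± 0.125.

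Upstream kinases and promoter factors fell more often than they rose. Of 34 tested, 8 rose and 20 fell with lurbinectedin (median -0.96), and 8 rose and 19 fell with the combination (median -0.83). The kinase genes RPS6KA2 (log2 -6.41 ± 0.328), MAP3K5 (-5.10 ± 0.257, from 10.9 to 0.308 CPM) and MAP3K20 (-3.23 ± 0.194) fell, as did MRTFA, a cofactor of serum response factor, with the combination (-3.05 ± 0.201). Promoter factors were found on both sides. ELK4 rose with lurbinectedin by log2 1.27 ± 0.156, as did SRF (0.94) and ELK1 (0.81). ELK3 fell (-1.34 ± 0.127), as did CREB1 (-1.31), MRTFA (-3.46) and MRTFB (-3.60). Of these, SRF, ELK1, CREB1 and MRTFB were picked after their values were seen. With teriflunomide only ELK3, an ETS factor that binds beside serum response factor, was called in this list, at 0.60 ± 0.123 (median of the list 0.02).

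Of 18 tested AP-1 target genes, 16 rose and 1 fell with lurbinectedin and with the combination, with medians of 1.61 and 1.55. LIF, a cytokine, went from 0.844 to 27.6 CPM (log2 5.02 ± 0.221) and HBEGF, an EGF receptor ligand, from 2.03 to 60.1 CPM (4.88 ± 0.225). With teriflunomide 4 rose and none fell (median 0.13), among them LIF (1.64 ± 0.232), the cytokine IL11 (0.96 ± 0.172) and SPP1 (2.12 ± 0.446), which was at 0.216 CPM in control. SPP1 was also the 1 target called lower with lurbinectedin, at a mean of 0.0162 CPM, where almost no reads were counted.

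**Figure D5:**
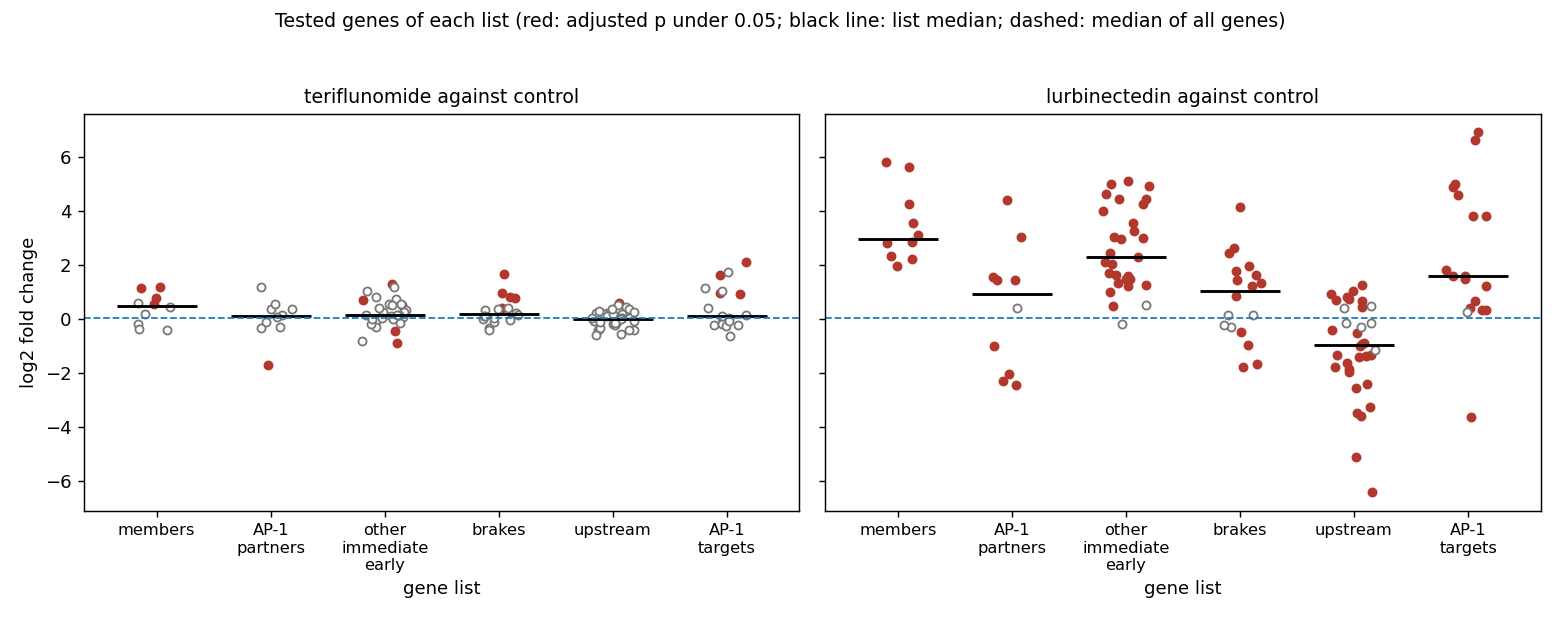
Log2 fold change of the tested genes in each list (y axis) with teriflunomide (left) and lurbinectedin (right) against control; red points were called at an adjusted p under 0.05, black lines are list medians and the dashed line is the median of all genes. With lurbinectedin the members' median is 2.98 and that of the upstream kinases and promoter factors -0.96.

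For FOS, JUN, ATF3 and EGR1 the genes most like them over the 12 libraries were found by Pearson's r of log2 CPM among 10311 genes with a mean of at least 5 CPM. FOS was closest to SGK1 (r = 0.998) and HEXIM1, JUN to ZNF385A (0.999), MYORG and SMTN, and ATF3 to CSRNP2 (0.998), ADPRHL1 and TENT5C. For these 3 members 1088, 994 and 1147 genes had an r over 0.95, a measure that includes the step between the 6 libraries without and the 6 with lurbinectedin. EGR1 had 82 such genes, and was closest to RRM2B (0.985), GCH1 and KLF5. When each group's mean was taken out, which leaves only the spread between replicates, the closest genes were RPL41 (0.966), ATP6AP2 and ANGPT2 for FOS, KHSRP (0.976), NRARP and EIF4G1 for JUN, BANF1 (0.949), APEX1 and S1PR3 for ATF3, and ZBTB8A (0.979), R3HDM2 and EEA1 for EGR1. These are descriptions over 12 libraries that share depth and composition.

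Within the members, JUNB and IER2 deviated together from their group means, with r = 0.996 over 12 libraries and 0.911 without teriflunomide replicate 3. JUN and FOSB did so with r = 0.924 and 0.910 without that library. EGR1 and JUNB had r = -0.751, but -0.375 without it, and FOSL1 and JUNB had -0.477 and 0.269, so these 2 values rested on that library. EGR1 and IER2 likewise went from -0.744 to -0.301. EGR1 and IER3 did not, with -0.745 over 12 libraries and -0.850 without that library.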

How the data were processed

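Messenger RNA libraries of 12 SBC3 spheroid samples were sequenced. The authors deposited 1 file per library with raw counts for each gene. Per the submitters' processing notes the tools were fastp 0.23.2, STAR 2.7.9 and featureCounts of Subread, with build hg38. The annotation release and the treatment of strand and of multi-mapping reads are not given in the sources used here. Gene coordinates matched GENCODE 29 for all 37318 identifiers of the same version, out of 60649 in the files. No member's identifier had the same version, so this check did not cover the members.

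Counts were tested in R 4.3.3 with edgeR 4.0.16: filterByExpr on the 4 groups (16683 genes kept), TMM scaling, a robust quasi-likelihood fit of 4 group means to all 12 libraries (biological coefficient of variation 14.5%) and Benjamini-Hochberg adjustment over all genes tested. The code was tested on simulated data. CPM use TMM effective sizes, and CPM per kb divides by the summed exon length in the files.

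The members and the lists were chosen with earlier results of these data known. Named genes are all 10 members, up to 3 genes by adjusted p from each list and comparison with control (AP-1 partners, other immediate early genes, brakes on the response, upstream kinases and promoter factors, AP-1 target genes), and the 3 genes most like FOS, JUN, ATF3 and EGR1. Some genes that met these rules are not reported here. Marker lists covered small cell and epithelial cells, leukocytes, fibroblasts and endothelium. Alternatives were DESeq2 1.42.0, its size factors in edgeR, library size only, no mitochondrial counts, no filter or 1 CPM in 3 libraries, a replicate block, only the groups compared, an adjusted p under 0.01, and leaving out each library. Leaving out both libraries with the highest mitochondrial share was chosen after seeing the data.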

Additional observations from a re-analysis of the deposited data

Results flagged for a closer look

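The effect of teriflunomide on 3 members differed by a test of the difference itself between libraries without and with lurbinectedin. The log2 difference of the effects was -1.27 for JUN, -0.71 for JUND and -1.01 for ATF3. Each gene was called higher with teriflunomide alone. With lurbinectedin present, the combination means were below the lurbinectedin means by amounts that were not called. In edgeR the adjusted p-values were 0.0167, 0.0434 and 0.0475, and under the alternatives they reached 0.101, 0.435 and 0.239, so the calls do not hold throughout.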

How the results depend on the processing

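The 10 calls with lurbinectedin, with the combination against control and with the combination against teriflunomide kept their direction and their side of the threshold under every alternative run. For teriflunomide against control, all genes called numbered 1002, and 265 with library size only, 1800 with no filter, 415 with a replicate block, 283 with only the groups compared, 1890 in DESeq2 and 230 at an adjusted p under 0.01. The 3 members called lower in the interaction were 1 with DESeq2 size factors in edgeR and 0 with library size only, a replicate block or an adjusted p under 0.01. The 43 genes called in the interaction were 6 with library size only, 195 with no filter, 8 with the block, 256 in DESeq2 and 5 at an adjusted p under 0.01. For the combination against lurbinectedin, 1 member was called higher with no filter and in DESeq2, and all genes called were 612 with no filter, 94 with only the groups compared and 584 in DESeq2. The cause was not tested. The JUNB interaction of -0.11 was 0.0028 with library size only.

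With 1 library left out, members called were 3 to 4 with teriflunomide, 0 to 3 lower in the interaction, and 0 to 1 higher and 0 to 2 lower for the combination against lurbinectedin. All genes called were 216 to 1555, 2 to 616 and 0 to 2067 in these comparisons. Values that were not called and changed sign ranged from -0.35 to 0.12 for JUNB with teriflunomide, -0.37 to 0.16 for FOS, -0.43 to 0.11 for FOSL1 and -0.22 to 0.025 for JUN in the combination against lurbinectedin, and -0.38 to 0.079 for JUNB and -0.24 to 0.31 for IER2 in the interaction. Without both libraries of highest mitochondrial share, a setting chosen after seeing the data, members called lower were 7 both in the combination against lurbinectedin and in the interaction. All genes called were 2757 with teriflunomide, 3640 for the combination against lurbinectedin and 1839 in the interaction. JUNB was 0.12 with teriflunomide, and the interaction was -0.39 for JUNB and -0.27 for IER2.

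Replicate numbers are shared by the groups, and little likeness by number was seen. Deviations of same-numbered libraries correlated above 0.1 in 3 of 18 pairs (-0.471 to 0.183), and 1 of 12 libraries correlated best with its own number. With 3 libraries per group these values cannot exclude a pairing or a shared batch. With a replicate block 0 members were called in the interaction. Depth limited IER3 and FOS most, at no more than 1.10 and 2.18 CPM in any control library.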
